A study of Mus musculus with 55 samples.

Results

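Acute phase response genes are described here by 10 members, taken by gene symbol from the 37620 genes in the expression files of 55 mouse livers. They are the serum amyloid A genes Saa1, Saa2, Saa3 and Saa4, the orosomucoid genes Orm1, Orm2 and Orm3, and the single genes Hp, Lcn2 and Apcs. All 10 were found, and for each the expression level was followed over mice and lines to separate the variation between lines from the variation among mice of a line.

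The livers came from untreated male mice of 29 Collaborative Cross (CC) lines, a panel of recombinant inbred mice descended from a common set of inbred founder strains, so that mice of a line are nearly identical genetically. There was 1 mouse for 8 lines, 2 mice each for 16 and 3 mice each for 5, and the mice were 8 to 11.9 weeks old and weighed 12.8 to 38 g. These numbers follow the sample labels, whereas the design text of the series counts 3 lines with 3 mice, which leaves its total below 55 mice. Which of these sources is in error was not tested, and it bears on every value given within lines. Mice are named by their line and a number that follows the order of deposition and pairs nothing across lines. Expression is given as FPKM, fragment counts scaled by RSEM for exon length and for the size of the library, at a depth of 20.5 to 33.95 M estimated fragments per mouse. The members' correlations with that depth, as log2(FPKM + 1) over the 55 mice, lay between -0.07 and 0.20.

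The acute phase response is the change in plasma proteins made by the liver after infection, injury or other inflammation. Interleukin 6 and interleukin 1 reach the hepatocyte, activate the transcription factors STAT3, NF-kB and C/EBP, and raise the transcription of secreted proteins such as serum amyloid A by orders of magnitude while the transcripts of albumin and transthyretin fall. In the mouse serum amyloid A, serum amyloid P and the orosomucoids are among the best known of these proteins, and liver is their main source.

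The labels of the lines IL-1052 and IL-2750 did not match the way their mice grouped. IL-1052 mouse 1 and IL-2750 mice 1 and 3 had Orm1 levels of 272, 175 and 175 FPKM, Apcs levels of 438, 538 and 486 FPKM and Saa4 levels of 90.9, 81.4 and 75.9 FPKM. IL-1052 mouse 2 and IL-2750 mouse 2 had 600.4 and 663 FPKM of Orm1, 268 and 278 FPKM of Apcs and 177 and 151 FPKM of Saa4. For these 3 genes the 5 mice thus fell into 2 sets that cut across the labels. The labels were kept, and the test among lines and the intraclass correlations without both lines are given below. Markers fixed for hepatocytes (Alb, Apoa1, Ttr, Apoh, Serpina1e, Cps1 and Hnf4a) summed to between 18715 and 76502 FPKM per mouse, and none of these 7 genes was at 0 in any mouse. The lowest sum was that of IL-2156 mouse 3, the mouse with the most Saa1, and the mice of this line had sums of 18715 to 39148 FPKM against a median of 49618 FPKM over all mice. Over the 55 mice the log2 sum had correlations between -0.48 (Saa3) and -0.16 (Apcs) with the 10 members, and its part in the member values was not tested. Alb, Apoa1 and Ttr, which make up much of the sum, are also on the list of negative acute phase genes read below. A low sum therefore cannot be told apart from a fall of these transcripts.

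The promoters of the paired genes are shown because the letters shared by relatives sit at nearly the same place. The stretches, from RefSeq on GRCm38.p6, run 5′ to 3′ towards the transcription start, and capitals mark a match to the C/EBP letters TTGCNNAA. They lie at chr7:46743125-46743192 on the minus strand (Saa1), chr7:46751620-46751687 on the plus strand (Saa2), chr4:63362299-63362366 on the plus strand (Orm2) and chr4:63356007-63356074 on the plus strand (Orm3).
Saa1: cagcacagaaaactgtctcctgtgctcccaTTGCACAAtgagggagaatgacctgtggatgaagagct
Saa2: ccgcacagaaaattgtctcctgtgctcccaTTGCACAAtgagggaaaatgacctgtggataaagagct
Orm2: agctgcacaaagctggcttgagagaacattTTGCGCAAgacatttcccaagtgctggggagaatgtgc
Orm3: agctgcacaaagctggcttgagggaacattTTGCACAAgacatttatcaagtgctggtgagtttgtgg

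The match began 182 bases before the start in Saa1, 183 in Saa2, 120 in Orm2 and 121 in Orm3. Promoters of 8 members were in the RefSeq table, without Orm1 and Hp. On either strand of the 250 bases before the start, 7 of the 8 held TTGCNNAA, among them Saa3, Saa4 and Lcn2, against 9.56% of 32851 promoters. Related genes with similar stretches, such as Saa1 and Saa2 or Orm2 and Orm3, were counted separately, so these matches were not independent. The NF-kB letters GGNNTTTCC were found in 1 member, Saa3, against 4.93% of promoters, and the STAT letters TTCNNNGAA in 1 member, Apcs, against 7.02%. No match overlapped a match to another of the 3 patterns. A match describes letters only, and the reference sequence is not that of a CC line.

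All 10 members differed among lines. In a joint test of the 21 lines with at least 2 mice (47 mice, edgeR's quasi-likelihood F test on rounded expected counts, Benjamini-Hochberg adjustment over all genes), 13523 of 15285 genes, 88.5%, had an adjusted p under 0.05, so that passing this test was the rule among liver genes and does not set the members apart. Their adjusted p-values lay between 6.11e-10 for Orm3 and 3.18e-06 for Saa1. The p-values set the differences between lines against the spread between mice of the same line. The 8 lines with a single mouse have no such spread and were not in the test. The members did differ in the size of the line differences relative to the spread among line mates. The intraclass correlation, the share of the variance of the rank-based normal scores that lies between lines, ranged from 0.361 for Saa3 to 0.807 for Apcs. It was above 0.5 in 9 of the 10 members and in 72.2% of 5949 total-expression traits, the genes whose values took enough distinct levels, and the median of those traits was 0.592. Saa3 was not among the traits because its rounded values took only 10 levels.

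The spread itself was wide on both sides. The SD within lines of log2(FPKM + 1) had a median of 0.19 over the traits, and in 6 members (Saa1, Saa2, Saa3, Orm2, Orm3 and Lcn2) it was above that of 95% of traits. The SD between lines, with a median of 0.25 over the traits, was above that of 95% of traits in 7 members, the same 6 and Apcs. Saa2 had the widest spread among line mates of the 10, 2.22, and Saa4 the narrowest, 0.35. Without the lines IL-1052 and IL-2750 all 10 members passed the test among lines, and the intraclass correlations ranged from 0.332 to 0.841.

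**Figure D1:**
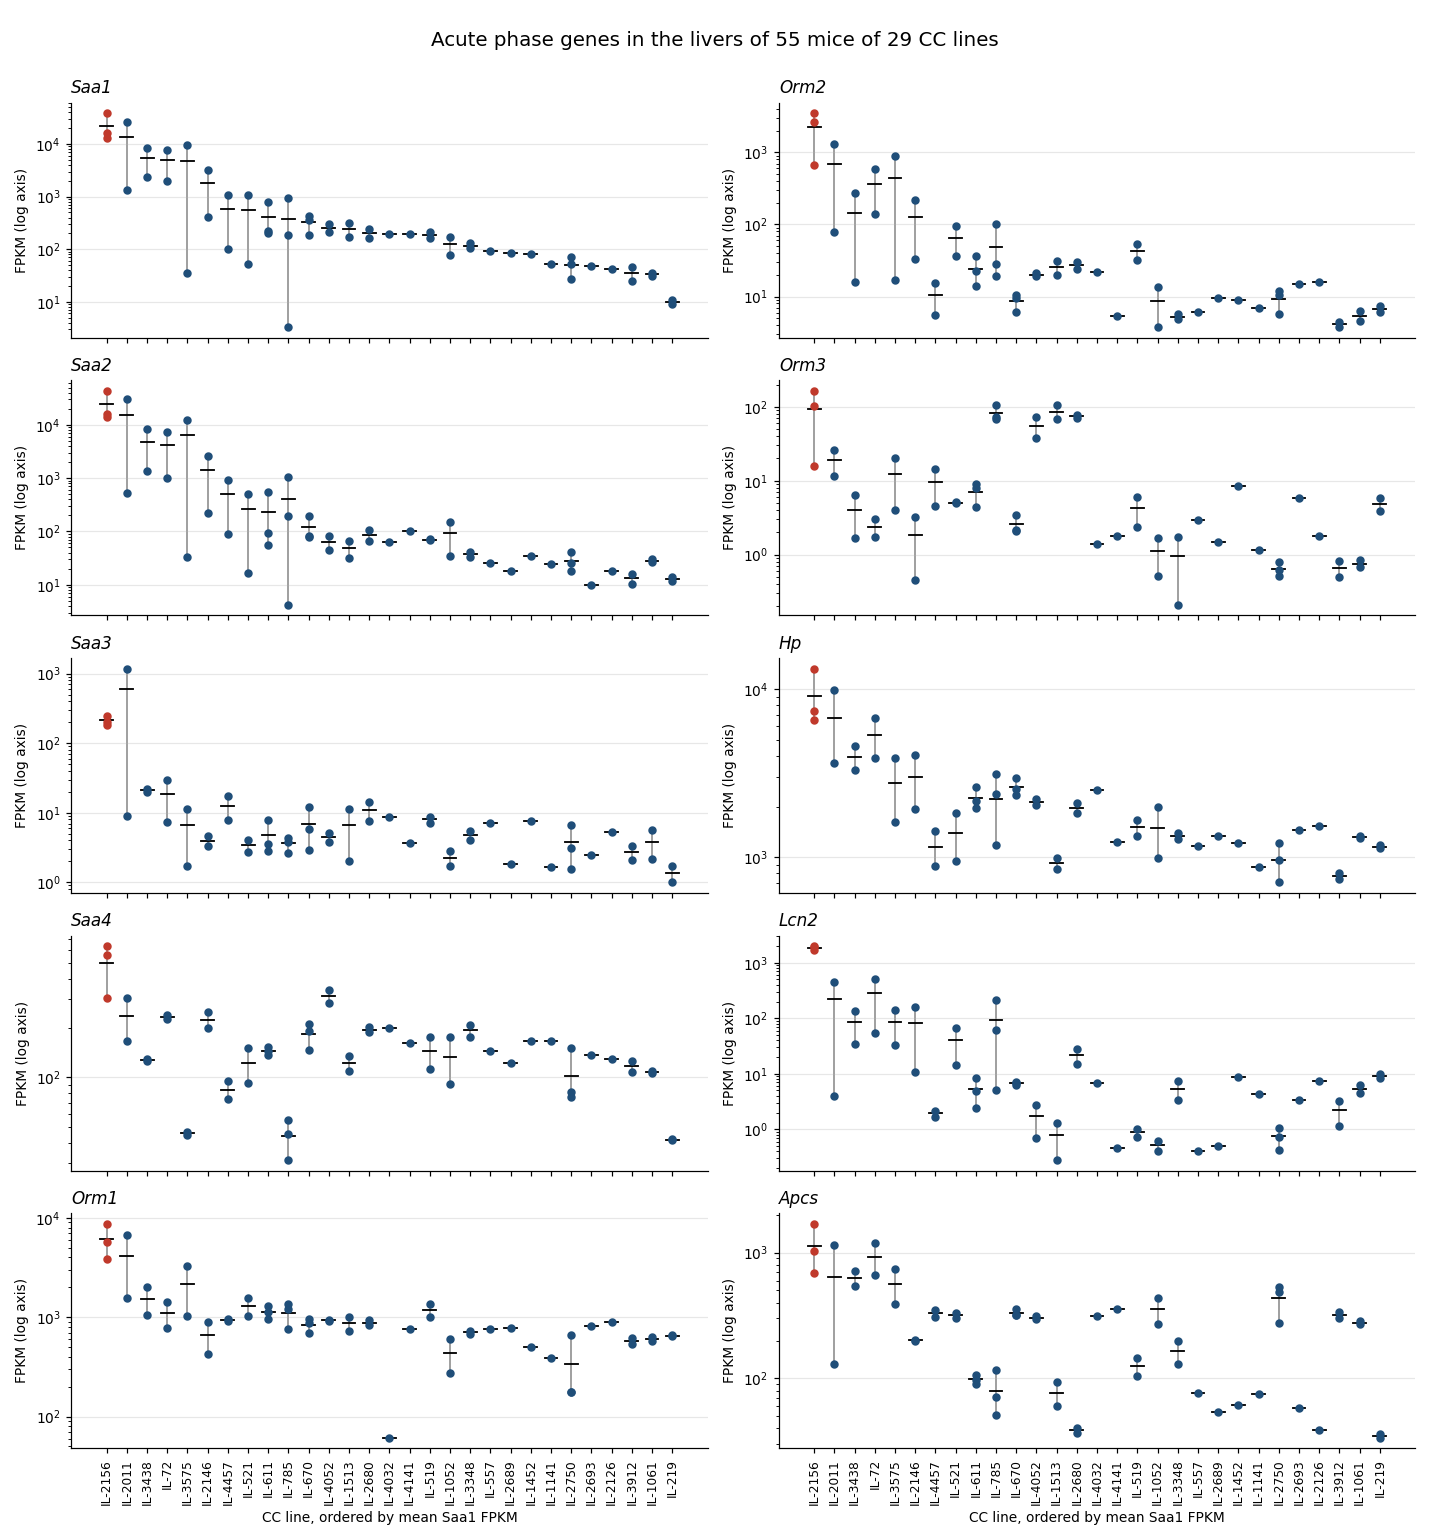
FPKM of each member on a log axis for the 29 lines, ordered by their mean Saa1 level, with 1 point per mouse, a grey bar from the lowest to the highest mouse of a line and a black dash at the line mean. The 3 mice of IL-2156, in red, are at or near the top for all members but Orm3, where 1 of them had 15.9 FPKM, and the mates of IL-2011, IL-3575 and IL-785 are far apart for Saa1 and Saa2.

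**Figure D2:**
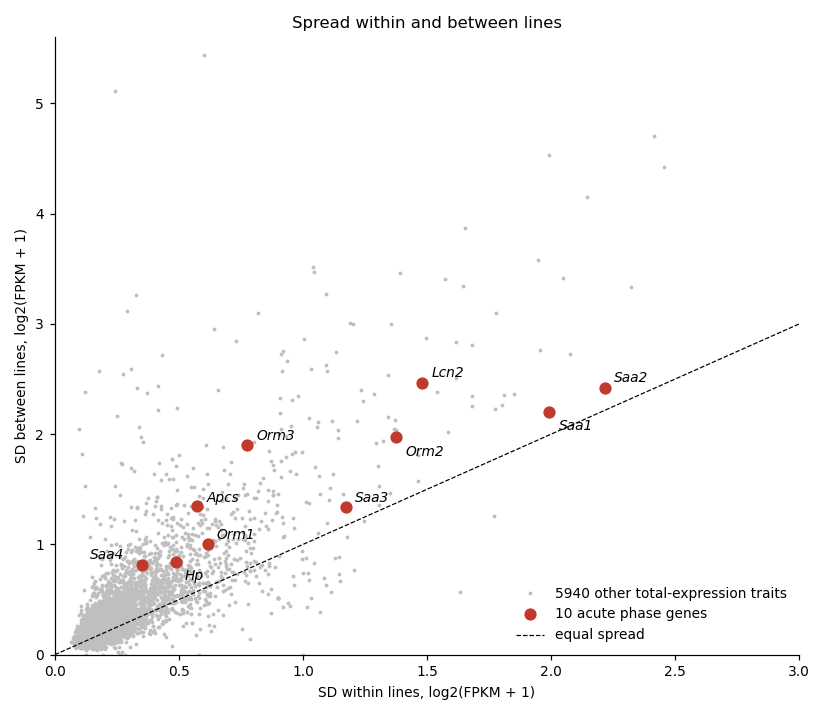
SD between lines against SD within lines, both of log2(FPKM + 1), for the 10 members (red, named) and 5940 other total-expression traits (grey), with the line of equal spread dashed. All 10 members lie above the dashed line, Saa1 at 1.99 within and 2.20 between lines and Saa4 at 0.35 and 0.82.

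The serum amyloid A genes lie together on chromosome 7 (NCBI build 37), Saa3 at chr7:53967368-53971046, Saa4 at chr7:53983387-53987913 and Saa1 at chr7:53995871-53998350 on the minus strand and Saa2 at chr7:54007203-54009684 on the plus strand. Saa1 and Saa2 encode the acute phase apolipoproteins carried on high density lipoprotein, Saa3 is made by macrophages and other tissues as well as liver, and Saa4 encodes the constitutive family member.

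Saa1 covered the range from 3.31 FPKM in IL-785 mouse 2 over a median of 186 to 38298 FPKM in IL-2156 mouse 3, a ratio of 11570.3. In 14 of the 55 mice the level was over 5 times the median. Line means ran from 9.955 ± 1.011 FPKM in IL-219 (SD, n = 2) to 22456 ± 13821 FPKM in IL-2156 (SD, n = 3), a ratio of 2256 that lay between 1460.2 and 2738 when each mouse was left out in turn and was 1387 without IL-2156. The mice of IL-2156 had 12858, 16214 and 38298 FPKM, and the nearest mouse of another line, IL-2011 mouse 1, had 26264 FPKM. Line mates were also far apart in several lines. IL-3575 mouse 1 had 36.0 FPKM and mouse 2 had 9466 FPKM, 263 times as much. IL-2011 mouse 2 had 1352 FPKM beside the 26264 FPKM of its mate. The 3 mice of IL-785 had 186, 3.31 and 940.3 FPKM, so that this line held the lowest mouse of all and a mouse above the median. In 13 of 21 lines the highest mouse exceeded the lowest by more than 2-fold. Line labels were permuted over mice 100000 times for a one-sided test of the intraclass correlation, which for Saa1 was 0.612 (permutation p = 0.00038), higher than in 55.1% of traits, while the SD within lines was higher than in 99.8% of them. With untransformed FPKM in place of the scores it was 0.356 (permutation p = 0.163).

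Saa2 followed Saa1. It ranged from 4.22 FPKM over a median of 69.0 to 43228 FPKM, in the same lowest and highest mice. Its line means ran from 9.76 FPKM in IL-2693, which had 1 mouse, to 24405 ± 16335 FPKM in IL-2156 (SD, n = 3), a ratio of 2500.5 that was 1567 without IL-2156, and the mates of IL-3575, 33.0 and 12598 FPKM, differed 382-fold. In 14 of 21 lines mates differed more than 2-fold. Its intraclass correlation of 0.504 was passed by most traits, as only 28.5% were lower (permutation p = 0.00662), and with untransformed FPKM it was 0.281 (permutation p = 0.182).

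Saa3 was low in most livers and high in 4. The lowest mouse had 1.00 FPKM, the median was 5.11 and the highest 1179 FPKM. The 4 highest mice were IL-2011 mouse 1, with 1179 FPKM, and the mice of IL-2156, with 185, 249.7 and 204 FPKM, and the next, IL-72 mouse 2, had 29.95 FPKM. IL-2011 mouse 2 had 9.10 FPKM, so that the mates differed 129.6-fold. The ratio of the highest line mean, 594 ± 827 FPKM in IL-2011 (SD, n = 2), to the lowest, 1.35 ± 0.488 FPKM in IL-219 (SD, n = 2), was 442, and it was 158 without IL-2011 mouse 1 and 877 without IL-2011 mouse 2. Its intraclass correlation of 0.361 (permutation p = 0.0325) was 0.178 without IL-2156 (p = 0.202), 0.332 without IL-1052 and IL-2750 (p = 0.0582) and 0.0152 with untransformed FPKM (permutation p = 0.182). The rounding of the scores placed most mice in few levels for this gene. With scores of unrounded values its intraclass correlation was 0.511, still the lowest of the 10 members. With log2(FPKM + 1) in place of the scores it was 0.567, above Saa1 with 0.550 and Saa2 with 0.544. The lowest place of Saa3 thus depended on the scale. Saa1, Saa2, Orm2 and Lcn2 also took few levels, 17, 15, 16 and 15. With unrounded scores they had 0.529, 0.524, 0.748 and 0.783, so that Saa1 and Saa2 were closer than with rounding. Ranks among the traits were not recomputed with unrounded scores.

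Saa4 had a narrower range than its neighbours. It ranged from 31.5 FPKM over a median of 145 to 629 FPKM. Line means differed 11.9-fold, and 7.47-fold without IL-2156. The highest and lowest mouse of a line differed more than 2-fold in 1 of 21 lines, IL-2156, which had 303, 560.4 and 629 FPKM. The intraclass correlation was 0.796 (permutation p = 1e-05, the smallest that 100000 permutations can give), above 93.3% of traits. The 7 mice of IL-219, IL-785 and IL-3575 had 31.5 to 55.0 FPKM and the other 48 mice at least 73.6 FPKM, a division chosen after the values were seen and not tested. The Saa1 level of those 7 mice ran from 3.31 to 9466 FPKM. In IL-3575, whose mates differed 263-fold in Saa1, Saa4 was 46.4 and 44.9 FPKM.

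The share of Saa2 in the sum of Saa1 and Saa2 also went with the line. It ranged from 15.5% in an IL-1513 mouse over a median of 32.2% to 57.1% in IL-3575 mouse 2, with an intraclass correlation of 0.681 and an SD within lines of 7.13 percentage points. IL-219 had 56.2% and 55.9% at Saa1 levels of 10.7 and 9.24 FPKM. IL-785 had 50.9%, 56.04% and 52.6%, and IL-2156 had 52.0%, 49.7% and 53.0%. A share above 50% therefore occurred in mice with the lowest as well as with the highest Saa1 level. Within lines the share mostly went up with the level, as the mouse with more Saa1 had the larger share in 12 of the 16 lines with 2 mice. In IL-2011 it had 53.4% against 28.2% and in IL-3438 49.6% against 36.7%. In the 4 exceptions the mouse with more Saa1 had the smaller share. These were IL-3348 (20.1% against 28.5%), IL-3912 (25.9% against 29.1%), IL-4457 (45.9% against 46.7%) and IL-519 (24.8% against 30.2%). Lines with 3 mice were not counted. Among them the mouse with the most Saa1 had the largest share in IL-2156, IL-611 and IL-670, and not in IL-785 and IL-2750. The coding sequences of Saa1 and Saa2 were identical at 351 of 369 bases (95.1%), so that RSEM shared out fragments that match both, and the split between them is less certain than their sum. The part of the lines' sequence differences from the reference in this share was not tested.

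**Figure D3:**
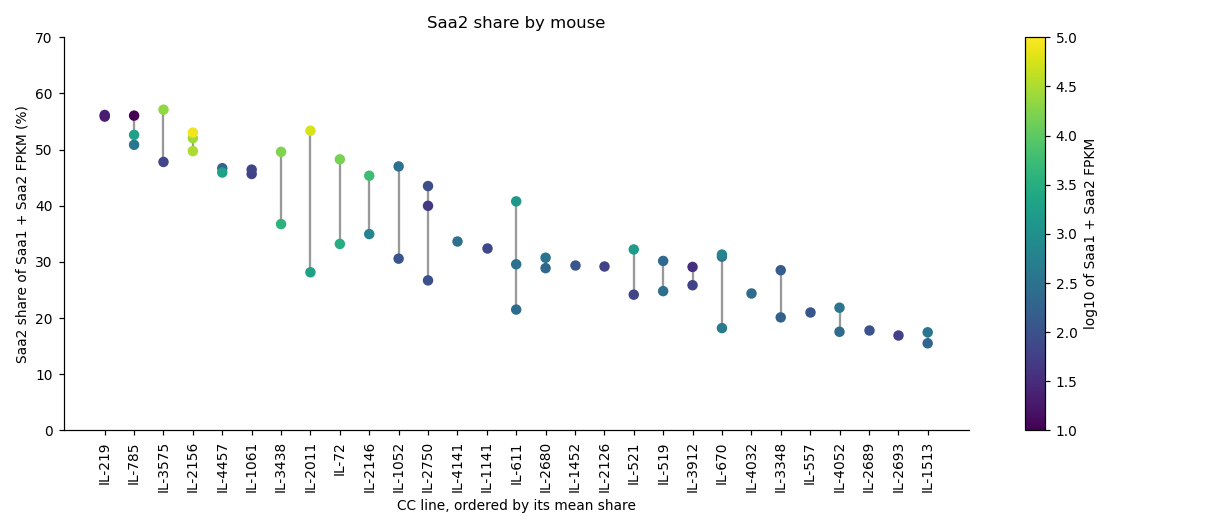
Share of Saa2 in the summed FPKM of Saa1 and Saa2, in percent, by mouse and line, coloured by the log10 of the sum. IL-219, IL-785, IL-3575 and IL-2156 hold the highest mean shares, in mice from the lowest to the highest sums, and the mice of IL-1513 have 17.5% and 15.5%.

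The orosomucoids, or alpha-1-acid glycoproteins, are plasma carriers of basic drugs and dampen inflammation. Their genes lie on the plus strand of chromosome 4, Orm1 at chr4:63005594-63009197, Orm3 at chr4:63017196-63020545 and Orm2 at chr4:63023483-63026912, and their coding sequences were identical in pairs at 86.1% to 89.9% of bases, which makes fragments shared among them possible here too.

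Orm1 was the abundant member of the family in every mouse, with 67.3% to 99.3% of the summed FPKM of the 3 genes. It ranged from 61.4 FPKM over a median of 886 to 8717 FPKM. The lowest value was the lone IL-4032 mouse, far below the next, 175 FPKM in IL-2750. Line means reached 6097 ± 2448 FPKM in IL-2156 (SD, n = 3), 99.3 times the IL-4032 level, and 18.04 times the lowest mean without IL-4032. The IL-4032 mouse had 21.6 FPKM of Orm2 and 197 FPKM of Saa1, beside medians of 17.0 and 186 FPKM. The intraclass correlation of Orm1 was 0.767 (permutation p = 1e-05), and mates differed most in IL-2011, with 6767 and 1551 FPKM.

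Orm2 was nearer to Saa1 in its pattern. From 3.77 FPKM over a median of 17.0 it reached 3479 FPKM in IL-2156 mouse 3, and the lines ran from 4.13 ± 0.502 FPKM in IL-3912 (SD, n = 2) to 2273 ± 1443 FPKM in IL-2156 (SD, n = 3), a ratio of 551, or 168 without IL-2156. The mates of IL-3575 had 17.0 and 878.6 FPKM, and in 12 of 21 lines mates differed more than 2-fold. The share of Orm2 in the summed FPKM of the 3 genes was 2.05% at the median and 31.5% in IL-2156 mouse 2. The intraclass correlation was 0.688 (permutation p = 5e-05), and 0.450 with untransformed FPKM (permutation p = 0.125).

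Orm3 was high in all mice of some lines. It ranged from 0.21 FPKM, about 4 fragments, over a median of 4.0 to 164 FPKM. All 9 mice of IL-1513, IL-2680, IL-4052 and IL-785 had 37.9 to 107 FPKM, while outside these lines and IL-2156 the highest of 43 mice had 26.2 FPKM. This grouping was noticed in the values and carries no test. The Saa1 level of those 9 mice lay between 3.31 and 940.3 FPKM, and IL-785 mouse 2, the lowest of all for Saa1, had 67.6 FPKM of Orm3. IL-2156 was the other line with high values, but its 3 mice were spread from 15.9 to 164 FPKM. The intraclass correlation was 0.782 (permutation p = 1e-05), above 91.4% of traits, with an SD of 0.78 within and 1.90 between lines. Highest and lowest line means differed 147-fold, a ratio that rests on levels of a few fragments at its lower end and became 449 without IL-3348 mouse 1.

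Hp, at chr8:112099030-112103072, encodes haptoglobin, which binds free haemoglobin. It was high in every liver, from 708 FPKM over a median of 1668 to 13209.8 FPKM. Line means ran from 773 ± 48.6 FPKM in IL-3912 (SD, n = 2) to 9041 ± 3632 FPKM in IL-2156 (SD, n = 3), a ratio of 11.7. Of the other lines IL-2011 was highest, with 9809.97 and 3622 FPKM. Mates differed more than 2-fold in 5 of 21 lines, and the intraclass correlation was 0.727 (permutation p = 1e-05).

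Lcn2, at chr2:32240153-32243317, encodes lipocalin 2, which binds bacterial siderophores and is also stored in neutrophil granules. The range was from 0.28 FPKM, 7 fragments, over a median of 6.27 to 1983 FPKM, and it was the member for which IL-2156 stood clear of all other mice. Its 3 mice had 1669, 1983 and 1930.3 FPKM, and the highest of the other 52 mice, IL-72 mouse 2, had 516 FPKM. The share of all genes that set these 3 mice clear of the others was not counted. The ratio of the highest line mean, 1861 ± 168 FPKM in IL-2156 (SD, n = 3), to the lowest, 0.40 FPKM in the lone IL-557 mouse, was 4652, and it was 713 without IL-2156. In IL-2011 the mates had 442 and 3.95 FPKM. The intraclass correlation was 0.704 (permutation p = 3e-05). Of 5 annotated isoforms, 1 took a mean of 98.8% of the gene's expression and at least 85.1% in every mouse.

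Markers of other cell types were read beside these values. The 9 markers (S100a8, S100a9, Ly6g, Retnlg, Mpo, Camp, Ngp, Csf3r and Cxcr2) summed to 5.50, 146 and 72.6 FPKM in IL-2156 mice 1, 2 and 3, and to between 0.63 and 42.4 FPKM in the other 52 mice. IL-2156 mouse 1 thus had 1669 FPKM of Lcn2 at a marker sum near the median of all mice, 4.67 FPKM. Over the 55 mice the log2 sum had a correlation of 0.44 with Lcn2 and 0.51 with Saa1, and the part of neutrophils in these levels was not tested. S100a8 and S100a9 reached the highest levels of the 9, 48.8 and 72.7 FPKM, and weigh most in the sum. Taken singly, the markers had correlations with Saa1 from 0.0011 (Ly6g) to 0.51 (S100a8). Of the defining markers Camp was at 0 in 19 mice, Mpo in 16, Retnlg and Ngp in 11 each, Ly6g in 6 and S100a9 in 2. The 8 Kupffer cell and macrophage markers summed to 69.5 to 306 FPKM in IL-2156 and 11.2 to 221 FPKM elsewhere, with a correlation of 0.24 with Saa1. The sum of 7 pancreatic acinar markers reached 439 FPKM in IL-3575 mouse 2, the mate with high Saa1, against 8.47 FPKM in mouse 1. Prss1 was listed at 0 in all 55 mice, and the part of such tissue in the member values was not tested. The 4 adipocyte markers summed to at most 14.3 FPKM, and to at most 0.07 FPKM in IL-2156. In bulk liver fewer cells of a type and less RNA per cell cannot be told apart.

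Apcs, at chr1:174824093-174825185, encodes serum amyloid P, the pentraxin that serves as the major acute phase reactant of this class in mice. It ranged from 33.9 FPKM over a median of 278 to 1693 FPKM and had the highest intraclass correlation of the 10 members, 0.807 (permutation p = 1e-05), above 94.6% of traits. Line means ran from 35.1 ± 1.73 FPKM in IL-219 (SD, n = 2) to 1137 ± 509.8 FPKM in IL-2156 (SD, n = 3), a ratio of 32.4. The mates of most lines were close, 40.3 and 36.96 FPKM in IL-2680, 294 and 315 FPKM in IL-4052, and more than 2-fold apart in 3 of 21 lines. The widest gap was again in IL-2011, with 1141 and 131 FPKM. Low Apcs did not go with low Saa1 in every line, as IL-2680 had 160.1 and 244 FPKM of Saa1, near the median.

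The relation of the other members to Saa1 was examined between lines, over 29 line means of log2(FPKM + 1), and within lines, over the deviations of 47 mice from their line mean. Between lines 9 relations were computed, and 8 passed p = 0.05 in a two-sided permutation test of Pearson's r with 100000 permutations. Saa2 was closest, with r = 0.965 (permutation p = 1e-05) and Spearman's rho = 0.916 (permutation p = 1e-05). It was followed by Hp with r = 0.874 (permutation p = 1e-05) and rho = 0.702 (permutation p = 2e-05), Orm2 with r = 0.862 and rho = 0.729 (permutation p = 1e-05 for both) and Saa3 with r = 0.831 (permutation p = 1e-05) and rho = 0.678 (permutation p = 8e-05). Without IL-2156 and IL-2011, the lines farthest from the median of Saa1, these 4 coefficients were 0.941, 0.782, 0.757 and 0.708 over 27 lines.

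Lcn2 had r = 0.710 (permutation p = 8e-05) and rho = 0.455 (permutation p = 0.0138), and Apcs r = 0.653 (permutation p = 0.00011) and rho = 0.605 (permutation p = 0.00073). Without the same lines r was 0.550 (permutation p = 0.00325) and 0.583 (permutation p = 0.0012). For Orm1 and Saa4 Pearson's r passed p = 0.05 over all lines and missed it without those lines. Orm1 had r = 0.592 (permutation p = 0.00083) and rho = 0.663 (permutation p = 0.00018), and r = 0.334 (permutation p = 0.0925) without them. Without IL-2156 alone r was 0.459 (permutation p = 0.0168), and without the lone IL-4032 mouse, whose Orm1 was the lowest, it was 0.760 (permutation p = 5e-05). Saa4 had r = 0.530 (permutation p = 0.00346) and rho = 0.489 (permutation p = 0.00794), and r = 0.343 (permutation p = 0.0791) without them, or 0.395 (permutation p = 0.0376) without IL-2156 alone. Orm3 had r = 0.337 (permutation p = 0.0709) and rho = 0.458 (permutation p = 0.0128), and r = 0.130 (permutation p = 0.519) without them. Both genes of a relation were read from the same libraries, and the p-values were not adjusted over the 9 relations.

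Within lines all 9 members had positive correlations with Saa1. As a description with no test, the correlation of the deviations with those of Saa1 was 0.98 for Saa2, 0.86 for Hp, 0.79 for Orm2, 0.78 for Lcn2, 0.69 for Orm1, 0.58 for Apcs and Orm3, 0.54 for Saa3 and 0.47 for Saa4. In the 16 lines with 2 mice, the mouse with more Saa1 also had more Saa2, Saa3, Orm1 and Orm3 in 14 lines, more Hp in 13, more Orm2, Lcn2 and Apcs in 12 and more Saa4 in 10. The pair Orm3 and Apcs had a correlation of -0.12 over line means and 0.60 within lines, and the pair Saa4 and Orm1 had 0.13 over line means and 0.73 within lines. For these pairs the mates of a line that were higher for a gene tended to be higher for the other, while the order of the lines differed between the genes. The 47 mice include those of IL-1052 and IL-2750, whose labels did not match their grouping. In each of these lines the mouse with the most Saa4 also had the most Orm1. The correlations within lines were not recomputed without these lines, so differences between lines under wrong labels may add to them.

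**Figure D4:**
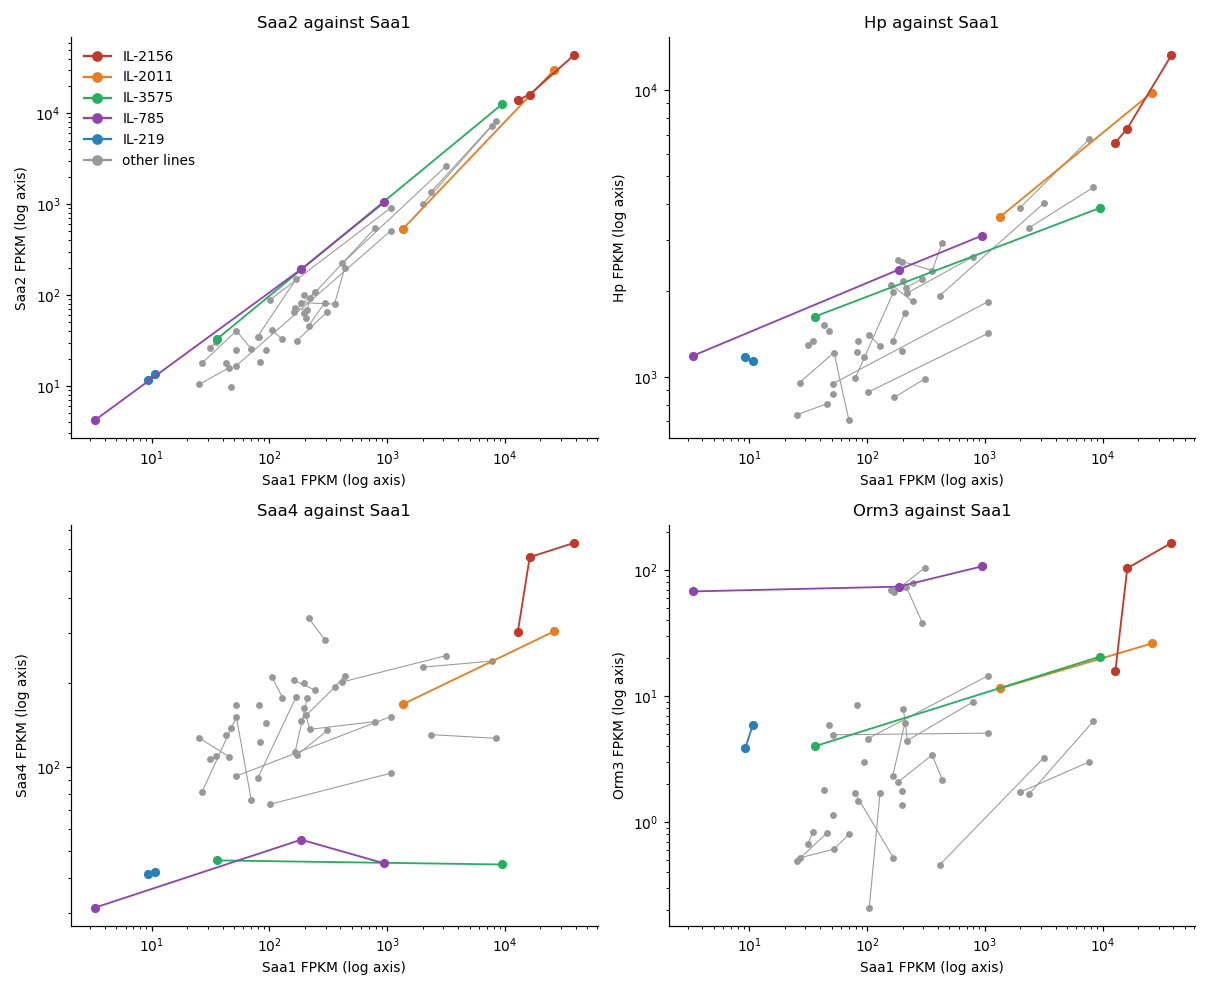
FPKM of Saa2, Hp, Saa4 and Orm3 against Saa1, both on log axes, for 55 mice, with the mates of a line joined and 5 lines in colour. Saa2 and Hp rise with Saa1 across and within lines, while IL-785, IL-219 and IL-3575 stay at 31.5 to 55.0 FPKM of Saa4 and the IL-785 mice hold 67.6 to 107 FPKM of Orm3 over Saa1 levels from 3.31 to 940.3 FPKM.

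**Figure D5:**
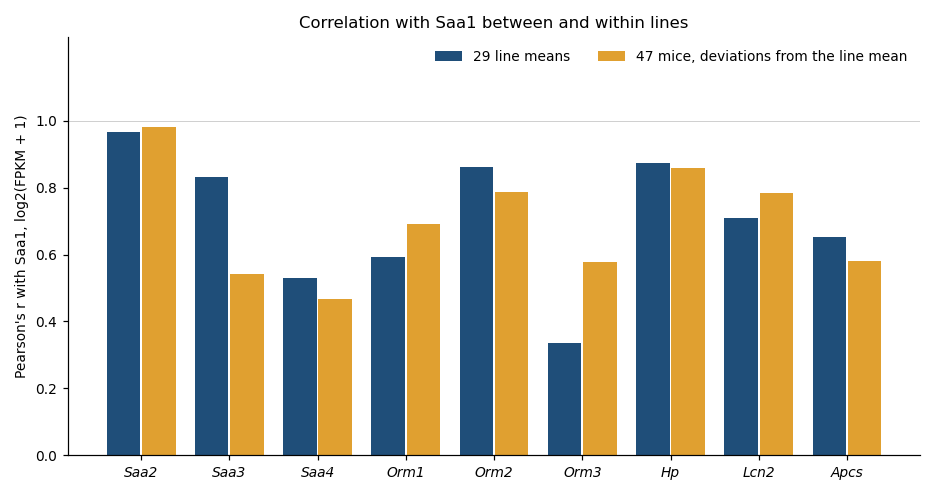
Pearson's r of 9 members with Saa1 in log2(FPKM + 1), over 29 line means (blue) and over the deviations of 47 mice from their line mean (yellow). Orm3 has the lowest bar between lines, 0.34, and 0.58 within lines, and Saa2 the highest on both, 0.97 and 0.98.

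How evenly mates shared their levels differed from line to line. In IL-219 and IL-2680 no member differed more than 2-fold between mates, and in 11 of 21 lines at least 5 members did. IL-2011 had 9 members with more than 2-fold and a median ratio of 12.8 over the members, and IL-3575 and IL-2156 had 8 each. By mean level IL-2156 was among the 5 highest lines for all 10 members, IL-2011 for 9, IL-72 for 8 and IL-3438 for 7. At the other end IL-219, IL-3912 and IL-2750 were each among the 5 lowest lines for 5 members. IL-219 was lowest of all lines for Saa1, Saa3, Saa4 and Apcs, yet its Lcn2 level of 9.21 ± 1.011 FPKM (SD, n = 2) was above the median mouse.

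No relation of the members to body weight or age was detected. In limma on 29 line means of log2(FPKM + 1), with both terms in the model, 0 of 11284 genes (0%) had an adjusted p under 0.05 for weight and 0 (0%) for age, and the members were among those not called. At an unadjusted p under 0.05 there were 833 genes for weight and 621 for age, and none of the 10 members. The nearest were Apcs for weight, with a slope of 0.11 ± 0.06 log2 units per g (SE, n = 29 lines, limma p = 0.0737), and Orm3 for age, with 0.60 ± 0.34 log2 units per week (SE, n = 29 lines, limma p = 0.0913). The standard errors of Saa1, 0.11 log2 units per g and 0.46 per week, leave room for sizeable slopes that this number of lines could not show. With 55 mice in place of line means, 28 genes passed for weight and 13 for age, none of them a member.

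Other genes of the response were read from lists fixed for this purpose. Among all genes with a highest level of at least 2 FPKM, 10491 of 11162 tested differed among lines. Of 18 other positive acute phase genes, 17 differed among lines, near that background. With Saa1 over the 55 mice 12 of the 18 had r above 0.5, against 158 of 11284 genes. Their median r was 0.67 and that of all genes -0.0018. Hpx, the haem carrier hemopexin, had the highest r, 0.89, and ranged from 1212 FPKM over 2278 to 13146 FPKM with an intraclass correlation of 0.722. Lrg1, a leucine-rich plasma glycoprotein, had r = 0.87 and ranged from 85.7 over 167 to 1156 FPKM. Crp, the other pentraxin, had an intraclass correlation of 0.707 and r = 0.50, within 119.7 to 628 FPKM. Hamp, the iron hormone hepcidin, named after its values were seen, was the gene that did not pass (edgeR adjusted p = 0.0763), and it had r = -0.14.

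All 8 negative acute phase genes differed among lines, beside 10491 of 11162 tested genes of that minimum level, with a median r of -0.19. Ttr, transthyretin, had r = -0.31, with 1645 to 2815 FPKM in IL-2156 against a median of 4154 FPKM over all mice. Serpina6, which encodes corticosteroid-binding globulin, had r = -0.47, with 52.0 to 88.7 FPKM in IL-2156 against a median of 115 FPKM. Trf, transferrin, went the other way, with r = 0.57, and Fetub had r = 0.19. Ahsg, named after its values were seen, had r = -0.0088. FPKM is scaled to the library, and Saa1 and Saa2 together had 26806 to 81525.5 FPKM in IL-2156, which can lower other genes. Of the hepatocyte markers outside this list, Apoh had 1382 to 1643 FPKM there, against a median of 1904 FPKM. Cps1, named after its values were seen, had 262 to 484 FPKM against a median of 494 FPKM. Serpina1e and Hnf4a, the latter also named later, were not all below their medians. They had 3043 to 9157 and 75.1 to 118.8 FPKM, against medians of 4181 and 112 FPKM. The part of this scaling in the low Ttr and Serpina6 levels was not tested. Of 20 signalling genes 17 were expressed at 2 FPKM or more in some mouse, with a median r of 0.14. All 17 differed among lines, beside the same 10491 of 11162 genes. Stat3, the factor activated by interleukin 6, had the highest r, 0.62, and ranged from 12.0 over 19.2 to 47.9 FPKM. Il1rap, the accessory protein of the interleukin 1 receptor, went the other way, with r = -0.57 over the mice and -0.55 within lines, and had 42.9 to 48.3 FPKM in IL-2156 against a median of 64.6 FPKM. Tnfrsf1a, a receptor of tumour necrosis factor, had r = 0.48. Cebpb, the C/EBP beta factor, had r = -0.16 over the mice and 0.55 within lines. Il6 itself, named after its values were seen, was at 0 in 39 mice and reached at most 0.12 FPKM.

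The 10 genes outside the members whose log2(FPKM + 1) was most correlated with Saa1 over the 55 mice, of 11274 genes compared, were Hpx (0.888), Lrg1 (0.871), Fgl1 (0.855), Itih4 (0.848), Itih3 (0.813), C4b (0.782), Vtn (0.766), Serping1 (0.762), Serpina3n (0.760) and Serpina10 (0.748). Among the members Saa2 (0.971), Hp (0.877), Orm2 (0.855) and Saa3 (0.789) had coefficients in or above this range. Mice of a line are not independent, and these coefficients are descriptions.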

How the data were processed

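Liver RNA of 55 male CC mice was sequenced as paired-end reads of 50 bases. The authors mapped and quantified the reads with RSEM 1.2.18 and Bowtie 2 on NCBI build 37 with Ensembl release 67. The deposited expected counts are not normalized, the deposited TPM and FPKM are scaled by RSEM for length and depth, and the deposited isoform shares are a percent of the expression of a gene. Mapping to a C57BL/6 reference can lower the estimates of other founder alleles, and this was not tested.

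Lines were taken from the labels, which name no batch. Traits needed a maximum of at least 2 FPKM and at least 12 levels after rounding to 200 bins of the maximum (each at least 0.5 FPKM), and were turned into van der Waerden scores. Expected counts were rounded for edgeR 4.0.16 (TMM, default filter). limma 3.58.1, with a pseudocount of 1 FPKM, DESeq2 1.42.0, Python 3.11.15 and R 4.3.3 were also used. The tests were tested on simulated data. Fits without 1 mouse reused the dispersion trend of all mice. Members and lists were chosen with earlier results of these data known. From the other lists at most the 4 genes with the highest intraclass correlation and the 2 with the highest r with Saa1 were named, apart from genes said to be chosen later. Positions are from Ensembl release 65 on the same build.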

Additional observations from a re-analysis of the deposited data

How the results depend on the processing

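Calls of members among lines were recomputed with another normalization, filter, tool, unit, lines or mice. Each such call is for 1 member in 1 fit, and 548 of 548 held. Of them 470 came from fits without 1 mouse and 78 from other settings. When every mouse needed 10 counts, 2 members were not tested. The number of genes called stayed between 10070 and 13673. With untransformed FPKM only 6 members had an intraclass correlation above 0 at p under 0.05. Saa1 then had 0.356 (permutation p = 0.163), Saa2 0.281 (permutation p = 0.182), Saa3 0.0152 (permutation p = 0.182) and Orm2 0.450 (permutation p = 0.125). The Saa3 intraclass correlation also missed p = 0.05 in 9 of the recomputations without 1 mouse. With 55 mice in place of line means, genes related to body weight numbered 28 and genes related to age 13, and leaving out 1 mouse at a time gave 0 to 1 for body weight. In the permutation test the Orm3 relation with Saa1 passed p = 0.05 in 4 of 55 recomputations without 1 mouse. The omission of line IL-2156 and the unrounded scores were chosen after seeing the data. No paired analysis was possible because mouse numbers follow the order of deposition and pair nothing across lines. The causes of these changes were not tested.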
